A study of Mus musculus with 30 samples.

Results

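Platelet RNA of control mice was compared gene by gene with RNA of peripheral blood mononuclear cells (PBMCs) from control mice of the same study. The comparison took the libraries labelled ctrl in both tissues, which were 10 of the 30 libraries of the series, 5 of platelets and 5 of PBMCs. It covered 14670 genes that passed a filter on low counts, out of 54532 genes in the deposited tables and 29359 with at least 1 count in a control library. The control mice, called C group, were female C57BL/6 mice aged 6 to 8 weeks at the start, and each received 100 µl of HBSS, a salt solution, under the skin of the flank without tumor cells. Blood was drawn 14 days later from the retro-orbital sinus into EDTA. Platelets were pelleted from platelet-rich plasma, and PBMCs were isolated with a density kit from the bottom layer of the same first spin. No sort on a surface marker is described for either preparation.

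Each library was a pool of several mice. The platelet pools held 10, 5, 5, 10 and 10 mice in order of replicate number, and the PBMC pools 5 mice each, so that spreads and P values below describe differences between pools. The mRNA was selected by its poly(A) tail, and the library kit did not mark the strand, so reads of a gene and of an overlapping antisense gene could not be told apart. Total counts on genes ranged from 15286572 to 25360080 in platelets and from 14089426 to 15440504 in PBMCs. Levels are given as normalized CPM (CPM, the counts of a gene relative to all counts of its library), with library sizes scaled by TMM factors, which assume that the middle of the genes does not differ between libraries. The fit of both tissues had a median log2 fold change of -0.16 over all genes. Scaling by the total count of each library alone moved this median by -1.45 on the log2 scale, to -1.61. Differences of less than about that size in favor of platelets therefore depend on the scaling, and the turned values are given beside the results or in the closing section.

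Platelets are shed by megakaryocytes, the large polyploid cells of the bone marrow, and carry no nucleus. They therefore hold mRNAs and ribosomes packed at the time of release, together with mitochondria, granules full of clotting and growth factors, and a cytoskeleton of actin, myosin and a marginal coil of tubulin. At a wound they bind von Willebrand factor and collagen through surface glycoproteins, respond to thrombin, ADP and thromboxane, and release their granules. PBMCs are the nucleated lymphocytes and monocytes of the blood, which transcribe, splice and divide.

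The tissue labels were first set against defining genes. Pf4, the chemokine platelet factor 4 of alpha granules (ENSMUSG00000029373, chr5:90772435-90773383 in GRCm38), measured 10537, 9672, 6210, 5582 and 4694 normalized CPM in the platelet libraries. In the PBMC libraries it measured 149, 314, 68.1, 413 and 322 normalized CPM. The lowest platelet library was above the highest PBMC library, and platelets were higher by 4.86 ± 0.50 (SE) on the log2 scale (29.0-fold; n = 5 and 5; adjusted P = 2.03e-06, edgeR's quasi-likelihood test with Benjamini-Hochberg adjustment). Cd3e, a subunit of the T cell receptor complex, measured 19.1, 8.96, 6.2, 11.9 and 9.31 normalized CPM in platelets and 76.4, 83.1, 61.5, 74.7 and 79.8 in PBMCs. It was lower in every platelet library than in any PBMC library, its log2 fold change being -2.76 ± 0.24 (adjusted P = 5.9e-07). Both defining genes followed the titles and source names of the samples, whereas the cell type label reads PBMC for the platelet samples too. Neither gene was at 0 in the other tissue. Between libraries, the Pearson correlation of log2 levels ranged from 0.939 to 0.975 within platelets, from 0.978 to 0.991 within PBMCs and from 0.731 to 0.804 between the tissues.

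Across all genes tested, 4595 (31.3%) were higher in platelets and 5843 (39.8%) were lower at an adjusted P under 0.05. A stricter test asked whether the difference exceeded 2-fold. Under it, 2294 genes (15.6%) were higher in platelets by more than 2-fold and 2673 (18.2%) were lower by more than 2-fold. These 4 shares are the background for every list below. The libraries of the tissues did not overlap for 3664 genes (25.0%) that were above all PBMC libraries in platelets and for 5017 genes (34.2%) that were below them. With library totals alone as the scaling, 1670 genes were higher and 11416 lower. Fewer cells of a type and less RNA per cell cannot be told apart in pooled RNA of this kind.

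The platelet libraries were dominated by few genes. The 10 most abundant genes took 37.5 ± 2.98% (SD, n = 5) of platelet counts and 8.23 ± 2.21% of PBMC counts. In platelets 45.4 ± 12.7 genes held 50% of the counts, against 869 ± 66.4 genes in PBMCs. When every library was thinned to 14089426 counts, 18341 ± 277 genes had a count in platelets and 22404 ± 184 in PBMCs. None of these values overlapped between the tissues (exact permutation P = 0.00794 for each, two-sided, the smallest that 5 against 5 libraries can give; adjusted over 12 values P = 0.0106).

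The leading transcripts in platelet libraries were those of globins, mitochondrial ribosomal RNA and thymosin beta 4. Hba-a1, the alpha globin gene, took 14.1 ± 6.12% of platelet counts and 2.02 ± 1.03% of PBMC counts. All annotated hemoglobin genes together took 22.3, 5.29, 19.8, 23.7 and 27.6% of the 5 platelet libraries and 3.29, 5.07, 9.39, 3.65 and 4.64% of the 5 PBMC libraries. Platelet replicate 2 lay inside the PBMC range, and the other platelet libraries lay above it (exact permutation P = 0.0159, adjusted P = 0.019). The mitochondrial ribosomal RNAs mt-Rnr2 and mt-Rnr1 took 6.69 ± 2.14% and 3.85 ± 1.24% of platelet counts. Tmsb4x, an actin-monomer binding peptide, took 3.62 ± 1.03%, Nrgn, a calmodulin-binding protein, 1.23 ± 0.33%, Fth1, the ferritin heavy chain, 1.03 ± 0.35%, and B2m, the light chain of MHC class I, 0.90 ± 0.25%. These shares are not corrected for gene length.

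**Figure D1:**
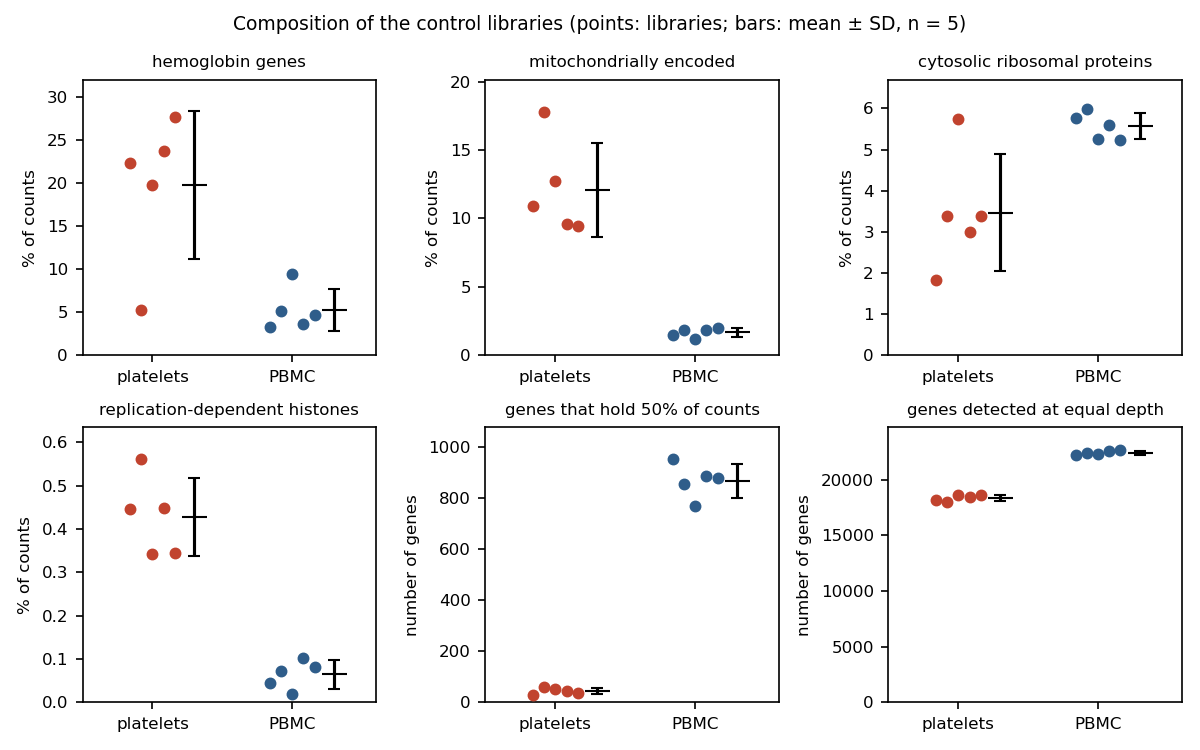
Each panel plots a property of the 5 control platelet libraries (red) and 5 control PBMC libraries (blue), with points for libraries in order of replicate number and bars for mean ± SD. Mitochondrially encoded genes took 12.1% of platelet counts on average against 1.67% in PBMCs, most of the difference being mt-Rnr2 and mt-Rnr1, while platelets had fewer detected genes in all libraries.

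Mitochondrially encoded genes took 12.1 ± 3.45% of platelet counts and 1.67 ± 0.35% of PBMC counts, with no overlap. Most of this difference lay in the ribosomal RNAs mt-Rnr2 and mt-Rnr1 given above, while the 13 protein genes together took 11139 to 21958 CPM of the whole library in platelets and 9136 to 10085 in PBMCs. Replication-dependent histones took 0.43 ± 0.09% against 0.0645 ± 0.0326%. Immunoglobulin genes went the other way, with 0.12 ± 0.03% in platelets and 0.47 ± 0.06% in PBMCs, as did T cell receptor genes, with 0.0122 ± 0.0036% and 0.0763 ± 0.0075%. Cytosolic ribosomal protein genes took 3.46 ± 1.42% of platelet counts and 5.57 ± 0.32% of PBMC counts (exact permutation P = 0.0317, adjusted P = 0.0317). Without the hemoglobin genes in the total, this difference was -1.55 percentage points (adjusted P = 0.103).

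**Figure D2:**
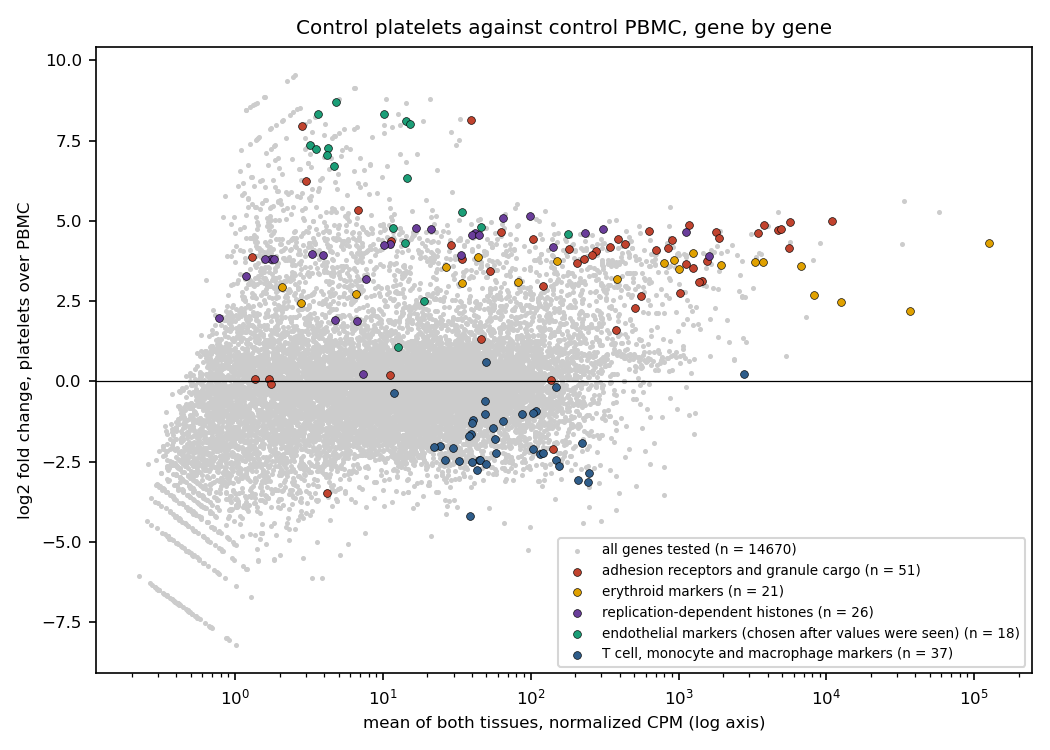
Each point is 1 of the 14670 genes, placed by its mean level in both tissues (normalized CPM, log axis) and by its log2 fold change, platelets over PBMCs. Adhesion receptors, granule cargo, erythroid markers and histones formed a band near 4 at high levels, endothelial markers stood above it at low levels, and T cell, monocyte and macrophage markers lay mostly below 0.

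The surface receptors that tether platelets to a vessel wall were higher in platelets with 1 exception. Of 22 adhesion receptors and tetraspanins tested (24 listed), 21 were higher in platelets, 20 of them by more than 2-fold, and none was lower, with a median log2 fold change of 4.00 against -0.16 over all genes. Itga2b, the alpha subunit of the fibrinogen receptor (ENSMUSG00000034664, chr11:102453297-102470122), measured 19005, 11937, 6366, 8925 and 6842 normalized CPM in platelets and 371, 716, 153, 1014 and 721 in PBMCs. Its partner Itgb3 measured 5342, 2945, 1271, 2633 and 2228 normalized CPM in platelets and 165, 235, 75.8, 331 and 262 in PBMCs. Neither gene overlapped between the tissues, and their log2 fold changes were 4.16 ± 0.53 and 3.75 ± 0.45 (adjusted P = 1.22e-05 and 7.41e-06).

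The von Willebrand factor receptor is built from 4 chains, of which 3 could be tested. Gp1ba, the chain that holds the binding site, measured 928, 464, 203, 457 and 402 normalized CPM in platelets and 20.1, 37.5, 10.1, 53.6 and 37.4 in PBMCs, a log2 fold change of 3.95 ± 0.48 (adjusted P = 7.43e-06). Gp9 and Gp5 were higher by 4.66 ± 0.55 and 4.10 ± 0.51 on the log2 scale. Gp1bb, the remaining chain, had 36 counts over all platelet libraries and 2 over all PBMC libraries and was not tested. Of its exon bases 92.9% are shared with Sept5 and another annotated gene, so its count says little about its mRNA.

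The collagen receptor Gp6 measured 1124, 910, 396, 668 and 640 normalized CPM in platelets and 21.4, 45.4, 9.88, 48.3 and 46.5 in PBMCs (log2 fold change 4.45 ± 0.45). Clec1b, the receptor of podoplanin, measured 3433, 2816, 1683, 1794 and 1590 in platelets and 42.5, 90.0, 20.5, 135 and 98.0 in PBMCs (4.87 ± 0.50). Both were separated in every library. Cd9, a tetraspanin, was higher by 4.71 ± 0.45, Treml1, a granule membrane receptor, by 4.40 ± 0.52, and Selp, the P-selectin that moves to the surface on activation, by 3.83 ± 0.34. Cd36, a scavenger receptor that monocytes also carry, was higher by 1.33 ± 0.31 with TMM scaling and was at -0.13 with library totals, and its libraries overlapped.

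The spread within each tissue followed a shared order. Platelet replicate 1 was the highest library for 18 of the 22 adhesion genes and platelet replicate 3 the lowest for 16. Among PBMCs, replicate 3 was the lowest for 19 and replicate 4 the highest for 15. The summed level of the 22 genes ranged from 985 to 3596 normalized CPM over the PBMC libraries and from 25147 to 67088 over the platelet libraries. The level of these genes thus differed from pool to pool in PBMCs too, and the part of platelets among the PBMCs in the size of the fold changes was not tested.

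The promoters of these genes are where the megakaryocyte factors are known to act, so the 250 bases before the start are shown for 4 of the members above, as RefSeq gives them in GRCm38.p6. Letters in capitals mark the motifs searched on either strand, and each run ends at the base before the start. A GATA motif was AGATAA, or the same letters with T as the first base. An ETS motif was CGGAAG, or the same letters with A as the first base.
Gp1ba: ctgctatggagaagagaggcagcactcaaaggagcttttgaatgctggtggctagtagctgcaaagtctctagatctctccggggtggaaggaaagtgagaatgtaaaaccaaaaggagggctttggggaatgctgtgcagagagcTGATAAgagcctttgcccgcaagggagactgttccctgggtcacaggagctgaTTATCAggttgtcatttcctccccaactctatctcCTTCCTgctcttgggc
Pf4: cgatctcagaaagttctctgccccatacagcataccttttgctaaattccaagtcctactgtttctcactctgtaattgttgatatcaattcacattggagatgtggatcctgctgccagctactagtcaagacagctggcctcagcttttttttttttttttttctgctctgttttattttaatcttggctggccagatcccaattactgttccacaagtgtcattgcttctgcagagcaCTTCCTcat
Clec1b: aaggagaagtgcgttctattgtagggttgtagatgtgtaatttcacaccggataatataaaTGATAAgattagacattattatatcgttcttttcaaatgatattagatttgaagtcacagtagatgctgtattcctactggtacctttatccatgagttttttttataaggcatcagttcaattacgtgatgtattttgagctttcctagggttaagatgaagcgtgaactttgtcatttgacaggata
Gp6: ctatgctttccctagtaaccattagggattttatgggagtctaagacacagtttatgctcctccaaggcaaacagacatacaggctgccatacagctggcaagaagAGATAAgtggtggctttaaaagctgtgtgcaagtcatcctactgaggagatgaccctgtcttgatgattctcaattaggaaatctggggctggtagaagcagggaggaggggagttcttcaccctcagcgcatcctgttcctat
They are 4 of 9 windows read, shown as examples for receptors and cargo. Of the others, Itga2b held ETS motifs 125 and 43 bases before the start and Gp9 an ETS motif 16 bases before it, while Treml1, Ppbp and Nrgn held neither motif. The Gp1ba window (chr11:70638872-70639121, plus strand) held GATA motifs that began 104 and 51 bases before the start and an ETS motif that began 16 bases before it. The Pf4 window (chr5:90772185-90772434, plus strand) held an ETS motif 9 bases before the start. The Clec1b window (chr6:129397047-129397296, plus strand) held a GATA motif 189 bases before it, and the Gp6 window (chr7:4397745-4397994, minus strand) a GATA motif 144 bases before it.

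Over the adhesion receptors, agonist receptors and granule cargo with a tested protein coding gene and a promoter in the RefSeq table, 12 of 47 windows (25.5%) held a GATA motif. The share was 9.46% of 9700 protein coding genes tested, 9.86% of 1430 genes higher by more than 2-fold, 11% of 1417 genes lower by more than 2-fold, and 17% of all 27025 promoters of the table. For the ETS motif the shares were 46.8%, 47.1%, 42.8%, 45.9% and 39% in the same order. A match of letters is a description of the window and was not taken as a bound site.

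Receptors for soluble agonists carry the signals of thrombin, ADP, ATP and thromboxane, among others. Of 12 tested (15 listed), 9 were higher in platelets, each of these by more than 2-fold, 2 were lower, and the median log2 fold change was 2.75. P2ry12, the ADP receptor blocked by clopidogrel, measured 1213, 1509, 740, 944 and 834 normalized CPM in platelets and 25.7, 52.2, 13.7, 59.8 and 59.3 in PBMCs (log2 fold change 4.64 ± 0.42, adjusted P = 6.36e-07). The ATP-gated channel P2rx1 was higher by 4.34 ± 0.41 and the second ADP receptor P2ry1 by 3.20 ± 0.31. The mouse thrombin receptors are F2rl2 and F2rl3, which were higher by 4.07 ± 0.42 and 2.30 ± 0.34. F2r, the main thrombin receptor of human platelets, was at 0.22 ± 0.18 with overlapping libraries (adjusted P = 0.289), and passed without platelet replicate 3, at 0.53 (adjusted P = 0.00824), while with library totals it was at -1.26 and passed in the other direction (adjusted P = 1.33e-05).

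Tbxa2r, the thromboxane receptor, went against its list. It measured between 4.10 and 5.36 normalized CPM in platelets and between 8.52 and 15.2 in PBMCs, with no overlap and a log2 difference of -1.09 ± 0.19 (adjusted P = 0.000205). The adenosine receptor Adora2a was the other member called lower.

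Among 38 signalling genes, 31 were higher in platelets, 23 by more than 2-fold, and 3 were lower (median log2 fold change 1.80), all with TMM scaling. With library totals 18 were higher and 13 lower, with a median of 0.26. Gng11, a G protein gamma subunit, measured 13711, 12518, 7669, 6216 and 5607 normalized CPM in platelets and 128, 296, 68.0, 375 and 301 in PBMCs. This was a log2 fold change of 5.29 ± 0.53 (adjusted P = 1.51e-06). The regulators of G protein signalling Rgs18 and Rgs10 were higher by 4.85 ± 0.38 and 3.98 ± 0.33. The nitric oxide arm was represented by Gucy1b1, the soluble guanylate cyclase subunit, at 3.83 ± 0.34, and Pde5a, which breaks cyclic GMP down, at 3.83 ± 0.31. Among genes of integrin activation, kindlin-3, from Fermt3, was higher by 2.98 ± 0.30, Rap1b by 2.52 ± 0.20 and the Rap exchange factor Rasgrp2 by 2.18 ± 0.27. The members called lower with TMM scaling were the calcium release channel Itpr1, at -1.33 ± 0.15, the phospholipase Plcb3, at -0.62 ± 0.13, and Apbb1ip.

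Granule cargo held the highest median of the platelet protein lists. Of 29 genes tested (30 listed), 23 were higher in platelets, all of them by more than 2-fold, 2 were lower by more than 2-fold, and the median log2 fold change was 4.24. Ppbp, the precursor of the chemokine CXCL7, measured 13529, 12908, 6364, 7967 and 6961 normalized CPM in platelets and 217, 423, 100, 522 and 507 in PBMCs (log2 fold change 4.75 ± 0.50). Nrgn was higher by 5.01 ± 0.54, the chaperone Clu by 4.62 ± 0.54, von Willebrand factor Vwf by 4.48 ± 0.51, coagulation factor F5 by 3.66 ± 0.42 and thrombospondin Thbs1 by 3.13 ± 0.42. Srgn, the proteoglycan that packs charged cargo in granules of many blood cells, was higher by 3.10 ± 0.28.

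Cargo with the largest fold change was nearly absent from PBMCs. Sparc, a matrix protein of alpha granules, measured 49.2, 66.4, 66.8, 87.5 and 122 normalized CPM in platelets and 0.0735, 0.199, 0, 0.322 and 0.752 in PBMCs (log2 fold change 8.14 ± 0.50). Its order over the platelet libraries differed from that of Pf4, with replicate 1 the lowest and replicate 5 the highest. Timp3, a protease inhibitor, was higher by 5.34 ± 0.46. Fibroblasts and endothelial cells also make Sparc and Timp3, and markers of those cells are given below. The 2 members called lower were the growth factor Hgf, with 0.0902 to 1.32 normalized CPM in platelets and 5.94 to 9.70 in PBMCs (-3.47 ± 0.44), and the lysosomal protease Ctsa (-2.10 ± 0.20). Ccl5, which T cells also make, measured 93.7 to 228 normalized CPM in platelets and 88.7 to 166 in PBMCs, and its log2 fold change of 0.05 ± 0.24 did not pass (adjusted P = 0.861), while with library totals it was at -1.37 and passed (adjusted P = 0.000172).

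The machinery that fuses and builds granules was split. Of 30 genes tested (31 listed), 18 were higher in platelets, 12 by more than 2-fold, and 8 were lower, 3 by more than 2-fold, and the median was 0.50 with TMM scaling and -0.97 with library totals. The fusion proteins led the genes that were higher. Rab27b, a GTPase that docks granules, was higher by 4.24 ± 0.39, its effector Sytl4 by 4.17 ± 0.44, the syntaxin Stx11 by 4.00 ± 0.35 and the SNARE protein Snap23 by 3.94 ± 0.29. Vamp8, the vesicle SNARE, was higher by 0.78 ± 0.17 with TMM scaling and at -0.67 with library totals. Among the genes that were lower, 2 are known for the forming of granules: Nbeal2, mutated in gray platelet syndrome, was at -1.36 ± 0.15 and Hps3, mutated in a form of Hermansky-Pudlak syndrome, at -1.64 ± 0.11.

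**Figure D3:**
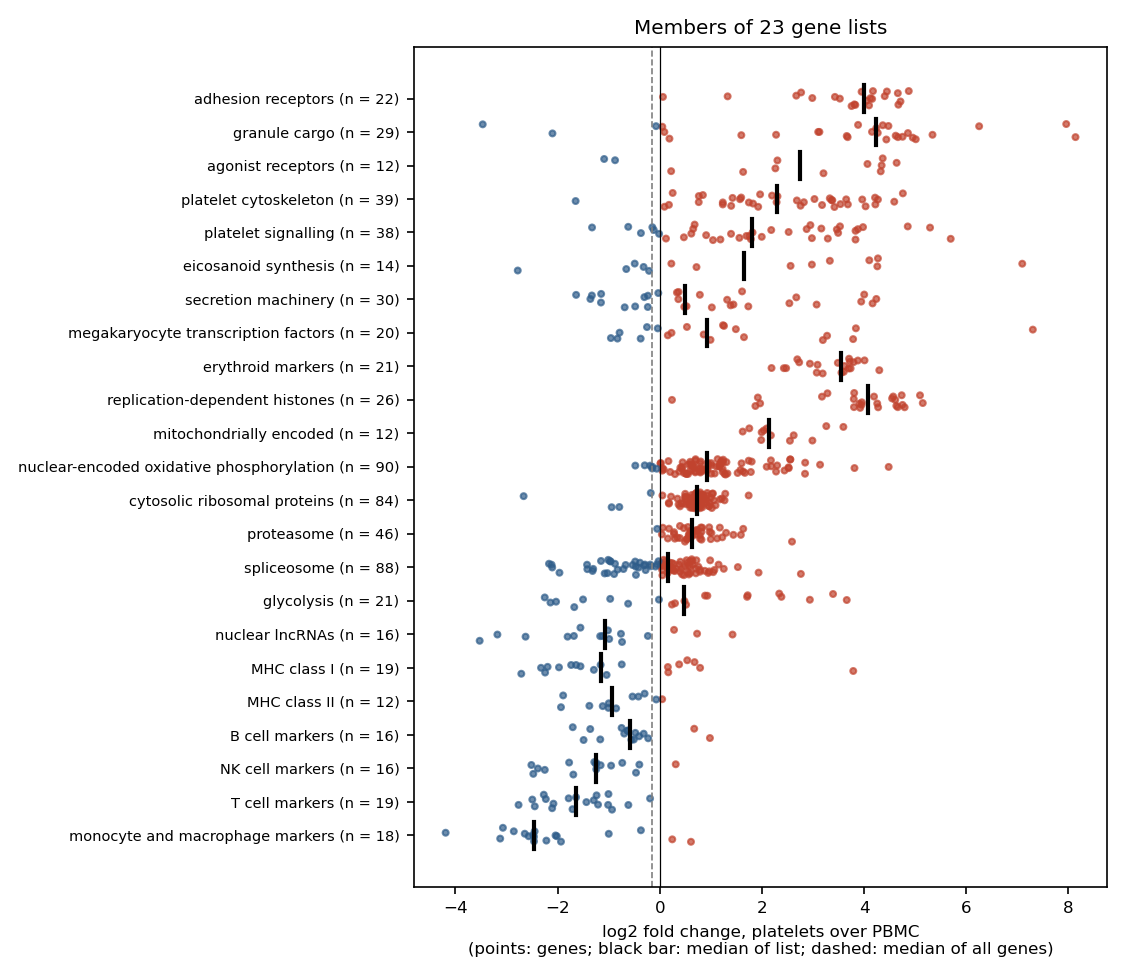
Log2 fold change (platelets over PBMCs) of the tested genes of 23 lists, 1 point a gene, with the list median as a black bar and the median of all genes as a dashed line. Adhesion receptors, granule cargo, histones and erythroid markers had medians between 3.56 and 4.24, while T cell markers and monocyte and macrophage markers had medians of -1.64 and -2.46.

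Cytoskeletal genes were higher as a group but over a wide range. Of 39 tested, 35 were higher in platelets, 29 by more than 2-fold, and 1 was lower (median 2.30), all with TMM scaling. With library totals 23 were higher and 7 lower, with a median of 0.82. Tmsb4x measured 87002, 84662, 48620, 47721 and 40744 normalized CPM in platelets and 2455, 3784, 1648, 4272 and 3839 in PBMCs. Its log2 fold change was 4.27 ± 0.49 (adjusted P = 4.51e-06). Myl9, a regulatory light chain of non-muscle myosin, was higher by 4.59 ± 0.54, Parvb, which links integrins to actin, by 4.22 ± 0.49, the tropomyosin Tpm4 by 3.65 ± 0.32, and Tubb1, the beta tubulin of the marginal coil, by 3.54 ± 0.50. Beta actin, Actb, was higher by 1.23 ± 0.23 with TMM scaling and at -0.26 with library totals. Pstpip2, an adaptor of macrophages and megakaryocytes, was the member called lower with TMM scaling, at -1.65 ± 0.18. Ilk passed as well, but 89.7% of its exon bases are shared with antisense genes, and it is not described further.

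Enzymes of eicosanoid synthesis included 2 cyclooxygenases with opposite directions. Of 14 tested (16 listed), 8 were higher in platelets, 7 by more than 2-fold, and 1 was lower (median 1.64), all with TMM scaling. With library totals 7 were higher and 7 lower, with a median of 0.17. In the thromboxane branch, cyclooxygenase-1 from Ptgs1 was higher by 4.27 ± 0.44 and thromboxane synthase Tbxas1 by 3.33 ± 0.31. Outside it, the platelet 12-lipoxygenase Alox12 was higher by 4.26 ± 0.49 and Alox5ap, the activating protein of 5-lipoxygenase, by 2.98 ± 0.30. Cyclooxygenase-2, from Ptgs2, an inducible enzyme of activated leukocytes, was the member called lower with TMM scaling. It measured 1.98, 0.615, 2.71, 1.34 and 0.724 normalized CPM in platelets and 6.06, 3.27, 16.4, 17.6 and 7.80 in PBMCs, with no overlap (-2.78 ± 0.51, adjusted P = 0.000293, and 0.0611 with voom).

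**Figure D4:**
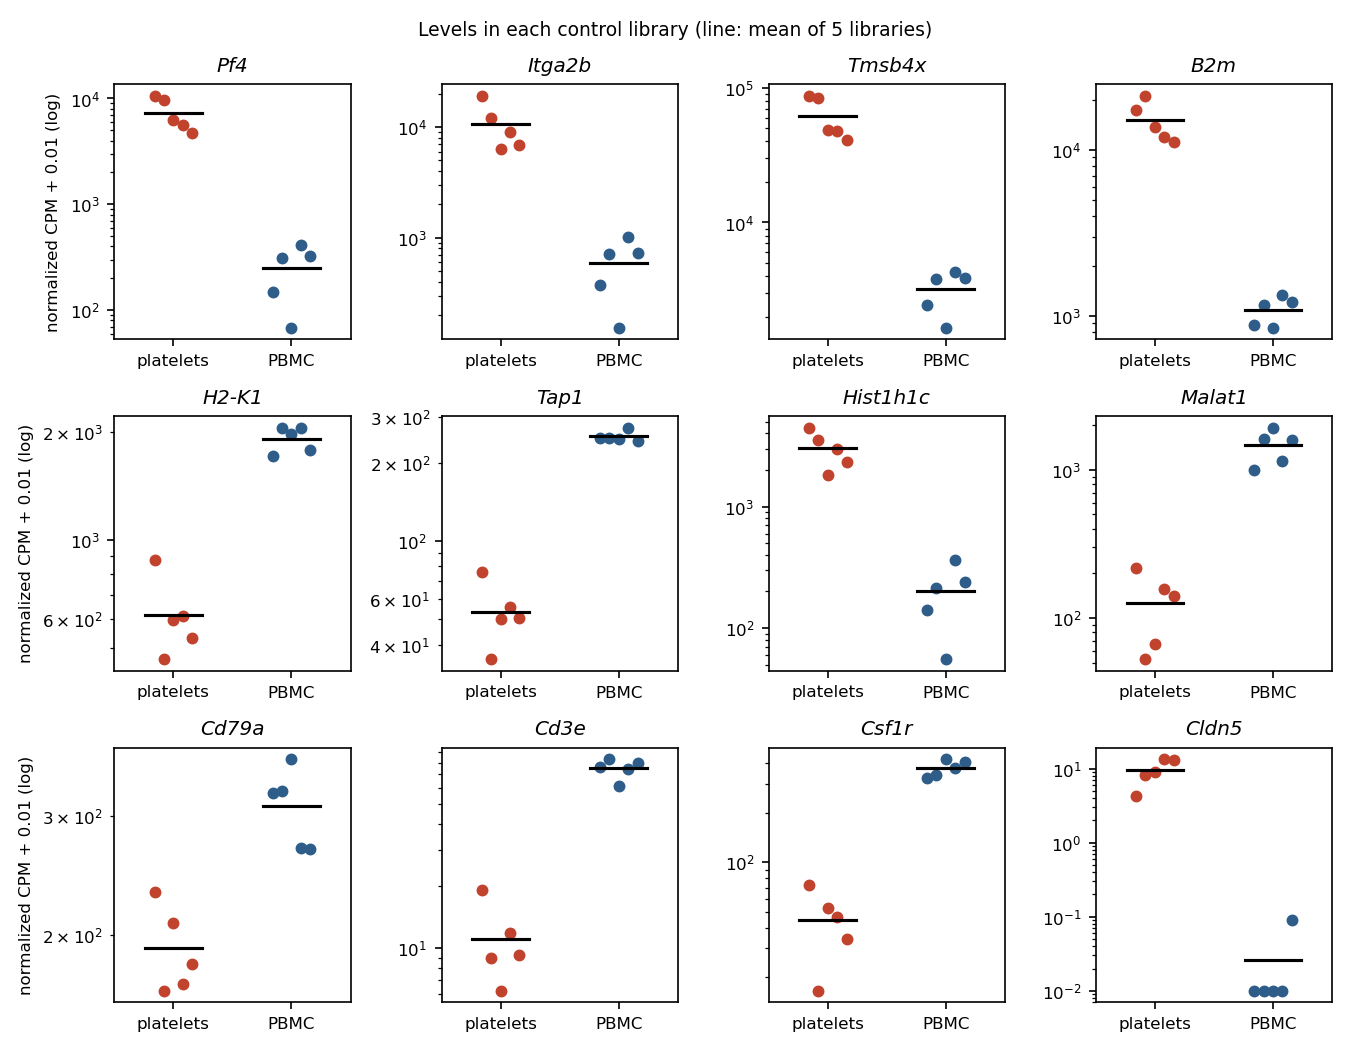
Levels of 12 genes in each control library, as normalized CPM plus 0.01 on log axes that differ between panels, with lines for the mean of 5 libraries. Platelet libraries (red) lay above all PBMC libraries (blue) for Pf4, Itga2b, Tmsb4x, B2m, Hist1h1c and Cldn5 and below all of them for H2-K1, Tap1, Malat1, Cd79a, Cd3e and Csf1r.

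Transcription factor mRNAs were found although platelets have no nucleus. Of 20 megakaryocyte and erythroid factors, 12 were higher, 7 by more than 2-fold, and 4 were lower, with a median of 0.93 with TMM scaling and -0.52 with library totals. Gata1 measured 229, 134, 88.7, 106 and 93.8 normalized CPM in platelets and 14.9, 14.6, 4.83, 18.1 and 14.8 in PBMCs (log2 fold change 3.28 ± 0.35). Gfi1b was higher by 3.84 ± 0.33, Tal1 by 3.78 ± 0.36 and Nfe2 by 3.19 ± 0.34. These 4 factors also serve red cell precursors, and erythroid markers were higher in the same libraries, so their source was not tested. Meis1, a homeobox factor of stem cells and megakaryocytes, was higher by 1.65 ± 0.25, which no longer passed with library totals (0.17, adjusted P = 0.579). Fli1, an ETS factor, was higher by 0.86 ± 0.13 with TMM scaling and at -0.59 with library totals.

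Of 30 factors of lymphocytes and myeloid cells, 2 were higher and 12 lower, 1 each by more than 2-fold (median -0.26). Cebpb, a myeloid factor, measured 24.4, 28.6, 85.4, 24.5 and 12.2 normalized CPM in platelets and 146 to 263 in PBMCs (-2.60 ± 0.42). Platelet replicate 3 was well above the other platelet libraries for this gene, and still below all PBMC libraries.

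Most of the RNAs listed as working in the nucleus were lower in platelets. Of 16 nuclear long noncoding RNAs tested (18 listed), 12 were lower, 5 by more than 2-fold, and 2 were higher (median -1.07). Malat1 (ENSMUSG00000092341, chr19:5795690-5802672), a nuclear speckle RNA, measured 218, 52.6, 66.3, 158 and 141 normalized CPM in platelets and 1004, 1625, 1931, 1150 and 1600 in PBMCs. The log2 fold change was -3.53 ± 0.39 (adjusted P = 3.27e-06), a level 11.5-fold higher in PBMCs. Xist, the RNA that coats the inactive X chromosome, was at -3.18 ± 0.33, Kcnq1ot1 at -2.63 ± 0.51 and Neat1, the scaffold of paraspeckles, at -1.80 ± 0.28. Of the 2 members called higher, 2900097C17Rik was at 1.42 ± 0.14 (more than 2-fold) with TMM scaling and at -0.04 with library totals. Gas5, which is exported and read by ribosomes, was higher by 0.73 ± 0.14 with TMM scaling, and stood at -0.75 with library totals.

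Several classes of annotated noncoding genes were lower as well, but not every class. All 33 small nucleolar RNA genes tested were lower in platelets, with a median log2 fold change of -3.57. Of 49 sense intronic genes 41 were lower and 5 higher (median -3.31), and of 430 antisense genes 261 were lower and 71 higher (median -1.63). Of 389 lincRNA genes 166 were lower and 110 higher (median -0.53), shares near those of all genes (39.8% and 31.3%). By more than 2-fold, 116 lincRNA genes were lower and 93 higher, against 18.2% and 15.6% of all genes. Bidirectional promoter lncRNAs went the other way with TMM scaling, 19 of 45 being higher and 9 lower (median 0.35), but their median was -1.10 with library totals. Reads on snoRNA and sense intronic genes sit within introns of a host gene, and no strand was recorded, so such reads and those of unspliced host transcripts cannot be told apart. Protein coding genes had a median of -0.09, and processed pseudogenes, which resemble spliced mRNAs, a median of 0.61 with 265 higher and 99 lower of 540, which was -0.85 with library totals. All pseudogenes together took a smaller share of counts in platelets, 0.60 ± 0.12% against 0.92 ± 0.03% (exact permutation P = 0.00794, adjusted P = 0.0106). The median exon length was 3836 bases in protein coding genes higher by more than 2-fold, 5077 bases in those lower by more than 2-fold, and 4482 bases in all tested.

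Proteins that make and process nuclear RNA moved in both directions. Of 68 subunits of RNA polymerase II and its general factors (70 listed), 24 were higher and 16 lower, and of 88 spliceosome genes 34 were higher and 25 lower, both with a median of 0.16 with TMM scaling and of -1.28 and -1.26 with library totals. Within the spliceosome the large SR-repeat protein Srrm2 was lower, with 122 to 295 normalized CPM in platelets and 928 to 1027 in PBMCs (-2.17 ± 0.22). The U1 protein Snrnp70 was at -2.12 ± 0.19, while the small ring protein Lsm3 was higher by 2.76 ± 0.18. Of 42 DNA replication genes 13 were higher and 4 lower (median 0.28 with TMM scaling and -1.14 with library totals).

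Histone mRNAs were higher in platelets almost throughout. Of 67 replication-dependent histone genes listed, 26 passed the filter on counts, 24 of those were higher in platelets, 23 by more than 2-fold, and none was lower, with a median of 4.07. Hist1h1c, a linker histone (chr13:23738808-23740367), measured 4472, 3506, 1826, 2964 and 2339 normalized CPM in platelets and 140, 214, 55.3, 360 and 239 in PBMCs (log2 fold change 3.91 ± 0.46). Hist1h2bc was higher by 4.66 ± 0.45 and Hist1h4m by 4.75 ± 0.50. Most of these mRNAs end without a poly(A) tail, and the libraries were made from poly(A) RNA. The levels are thus those of molecules kept by that selection, and whether these had a tail was not tested. Near-identical histone copies can share reads, and single members are uncertain for that reason.

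Of 28 mitotic genes (30 listed), 14 were higher and 2 lower, with a median of 0.81 with TMM scaling and -0.63 with library totals. Ube2c, of the anaphase ubiquitin machinery, measured 276, 26.5, 74.3, 159 and 186 normalized CPM in platelets and 6.94, 12.5, 24.1, 10.8 and 9.70 in PBMCs (3.49 ± 0.54). As for most erythroid markers, platelet replicate 1 was highest and replicate 2 lowest, and the part of red cell precursors in this value was not tested.

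Cytosolic ribosomal protein genes moved as a block of small differences. Of 84 tested (86 listed), 70 were higher and 3 lower, 1 each by more than 2-fold, with a median of 0.72 with TMM scaling and -0.69 with library totals. The calls turned as well, with 0 higher and 64 lower with library totals. Platelet replicate 1 was the lowest library for 67 of the 84 and replicate 3 the highest for 78. Of 65 translation factors (69 listed), 36 were higher and 7 lower (median 0.45 with TMM scaling and -0.99 with library totals). Eif1, the start codon selection factor, was higher by 3.03 ± 0.24, and Pabpc1, the poly(A) binding protein, by 1.78 ± 0.22, which no longer passed with library totals (0.30, adjusted P = 0.175). The elongation factors Eef1a1 and Eef2 were higher by 0.78 ± 0.24 and 0.69 ± 0.18 with TMM scaling and were at -0.64 and -0.75 with library totals.

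The 12 mitochondrially encoded protein genes tested (13 listed) were all higher in platelets by more than 2-fold, without overlap, with a median of 2.13 with TMM scaling and 0.69 with library totals. mt-Co1, a core subunit of cytochrome oxidase, measured 12222, 11328, 12711, 9769 and 12236 normalized CPM in platelets and 2558, 3040, 2915, 3150 and 2959 in PBMCs (1.99 ± 0.24, adjusted P = 8.64e-06). mt-Cytb was higher by 2.62 ± 0.22. Of 90 nuclear-encoded genes of oxidative phosphorylation (94 listed), 73 were higher, 26 by more than 2-fold, and 1 was lower, with a median of 0.93 with TMM scaling and -0.52 with library totals. Cox5a, a nuclear-encoded subunit of the same oxidase, measured 277 to 548 normalized CPM in platelets and 20.5 to 33.0 in PBMCs (3.81 ± 0.24), and Cox6b1 was higher by 2.52 ± 0.21. Of 77 mitochondrial ribosomal proteins 43 were higher and 4 lower, and of 46 proteasome subunits 34 were higher and none lower, with medians of 0.61 and 0.64 with TMM scaling and of -0.84 and -0.78 with library totals.

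Glycolysis genes included members of a family with opposite directions. Of 21 genes 11 were higher, 7 by more than 2-fold, and 7 were lower, 5 by more than 2-fold, with a median of 0.48 with TMM scaling and -0.95 with library totals. The glucose transporter Slc2a3 measured 3295, 2474, 1155, 1956 and 1598 normalized CPM in platelets and 133, 189, 73.6, 234 and 200 in PBMCs (3.66 ± 0.37). The related transporter Slc2a1 measured 11.4, 4.51, 13.4, 4.33 and 5.17 in platelets and 33.0, 26.0, 35.6, 41.4 and 23.2 in PBMCs (-2.03 ± 0.31). Hexokinase likewise divided, with Hk1 higher by 2.94 ± 0.30 and Hk2 at -1.50 ± 0.23. Tpi1 was higher by 3.39 ± 0.26, Aldoa by 2.38 ± 0.21 and Pkm by 2.34 ± 0.26, 3 enzymes of the pathway itself, and the lactate exporter Slc16a3 was at -2.25 ± 0.35. Gapdh had 172 counts over the platelet libraries and 1633 over the PBMC libraries, far fewer than its neighbors in the pathway, and it has many processed copies in the genome, so its value is uncertain.

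Iron genes were led by storage. Of 22 iron and heme genes 11 were higher and 4 lower (median 0.39 with TMM scaling and -1.08 with library totals). Fth1 measured 21726, 25613, 14795, 13740 and 10715 normalized CPM in platelets and 581, 1113, 583, 1045 and 1002 in PBMCs (4.32 ± 0.39), and Ftl1, the ferritin light chain, was higher by 4.01 ± 0.29. The transferrin receptor Tfrc was at -1.11 ± 0.27, and did not pass in the fit of all 30 libraries (adjusted P = 0.309). Alas2 and Fech of this list are also erythroid markers.

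Of 21 apoptosis regulators (23 listed), 8 were higher and 9 lower, shares near those of all genes (31.3% and 39.8%), with a median of 0.07 that was -1.38 with library totals. Bcl2l1, which encodes BCL-XL and sets platelet lifespan, measured 864, 333, 277, 385 and 392 normalized CPM in platelets and 32.6, 47.2, 47.1, 57.3 and 46.8 in PBMCs (3.29 ± 0.30). Bcl2, the relative used by lymphocytes, measured 45.7 to 69.1 in platelets and 85.4 to 105 in PBMCs (-0.71 ± 0.13), and Mcl1 was at -0.55 ± 0.15. The inducible sensor Pmaip1 was at -1.72 ± 0.29.

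Antigen presentation by MHC class I showed members moving apart. Of 19 genes 12 were lower in platelets, 9 by more than 2-fold, and 5 were higher, 1 by more than 2-fold (median -1.16). B2m measured 17377, 21046, 13797, 11892 and 11154 normalized CPM in platelets and 887, 1162, 847, 1343 and 1211 in PBMCs. It was higher in platelets by 3.79 ± 0.32 on the log2 scale (adjusted P = 4.4e-07). The heavy chain H2-K1 that pairs with it measured 876, 463, 597, 612 and 531 in platelets and 1713, 2059, 1975, 2051 and 1784 in PBMCs, a log2 difference of -1.64 ± 0.20 (adjusted P = 1.01e-05). The heavy chain H2-D1 was higher by 0.68 ± 0.22 with TMM scaling and at -0.83 with library totals, and did not pass with the replicate block (adjusted P = 0.0527) or with every gene that had a count (0.0585). H2-Q7 was at -2.71 ± 0.24. Heavy chain genes resemble each other closely and can share reads.

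Tap1, a chain of the transporter that brings peptides to MHC class I, measured 75.8, 35.1, 50.1, 55.8 and 50.6 normalized CPM in platelets and 250, 250, 249, 274 and 244 in PBMCs (-2.24 ± 0.18), and its partner Tap2 was at -1.97 ± 0.17. The chaperone Calr was at -0.74 ± 0.19 (adjusted P = 0.00321), with platelet replicate 1 at 176 inside the PBMC range of 161 to 207. Without any 1 of platelet replicates 2, 3, 4 or 5 it was at -0.49, -0.48, -0.55 or -0.49 and no longer passed (adjusted P = 0.0704 to 0.086), nor did it in the fit of all 30 libraries (-0.76, adjusted P = 0.0716). Psmb8 of the immunoproteasome was higher by 0.79 ± 0.19 with TMM scaling and at -0.63 with library totals. Of 12 MHC class II genes 9 were lower, 3 by more than 2-fold, and none was higher (median -0.93). H2-Ab1 was at -1.38 ± 0.20 and the protease Ctss, which cuts the invariant chain and is also a monocyte marker, at -1.93 ± 0.20.

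Markers of nucleated leukocytes were lower in platelets by different amounts. The median log2 fold change was -0.59 over 16 B cell markers, -1.25 over 16 NK cell markers, -1.64 over 19 T cell markers and -2.46 over 18 monocyte and macrophage markers. This order is set by ratios within libraries and was -2.05, -2.70, -3.10 and -3.97 with library totals. B cell markers were called lower for 13 genes and higher for 2, T cell markers for 18 and none, NK cell markers for 13 and none, and monocyte and macrophage markers for 15 and none. Summed over each list, B cell markers ranged from 2366 to 2938 normalized CPM in platelets and from 3471 to 4567 in PBMCs. T cell markers ranged from 609 to 753 and from 1570 to 1965, NK cell markers from 176 to 284 and from 498 to 756, and monocyte and macrophage markers from 2650 to 5666 and from 4781 to 6469.

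Cd79a, the signalling chain of the B cell receptor, measured 232, 166, 209, 169 and 182 normalized CPM in platelets and 324, 326, 363, 269 and 268 in PBMCs (-0.70 ± 0.15). The B cell factor Spib was higher in platelets by 0.98 ± 0.16 and the surrogate light chain Vpreb3 by 0.67 ± 0.21, both with TMM scaling, and they stood at -0.45 and -0.74 with library totals. Csf1r, the growth factor receptor of monocytes, measured 72.9, 16.6, 52.4, 46.6 and 34.3 normalized CPM in platelets and 327 to 423 in PBMCs (-3.07 ± 0.31). Mpeg1, a pore-forming protein of macrophages, was at -2.86 ± 0.28. Cd14, the lipopolysaccharide co-receptor, measured 1.23 to 7.98 in platelets and 17.5 to 146 in PBMCs (-4.19 ± 0.61). Lyz2, the lysozyme of the same cells, measured 2193 to 4755 in platelets and 2267 to 3103 in PBMCs, and its log2 fold change of 0.24 ± 0.26 did not pass (adjusted P = 0.414), while with library totals it was at -1.28 and passed (adjusted P = 5.37e-05). Among NK cell genes, the interleukin receptor chain Il2rb was at -2.51 ± 0.19 and perforin, Prf1, at -2.38 ± 0.27, and the T cell co-receptor Cd4 was at -2.23 ± 0.18.

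The remaining leukocyte lists were mixed. Of 15 neutrophil markers (17 listed), 7 were lower and none higher (median -1.19), with summed levels of 248 to 1233 normalized CPM in platelets and 285 to 1723 in PBMCs. S100a8 measured 200, 94.2, 378, 92.6 and 86.0 normalized CPM in platelets and 108, 35.3, 59.0, 403 and 42.8 in PBMCs (0.39 ± 0.65, adjusted P = 0.601). PBMC replicate 4 held the highest value of that tissue, and without it S100a8 and S100a9 were higher in platelets by 1.46 and 1.54 and passed, while with library totals and all libraries they were at -1.03 and -0.81 and did not pass. Ngp, a protein of immature neutrophil granules, was at -3.88 ± 0.70, and at -2.70 without PBMC replicate 4. Of 12 basophil and eosinophil markers (13 listed) 8 were lower and 1 higher (median -1.92, and -1.24 without PBMC replicate 1), with summed levels of 76.7 to 156 in platelets and 67.8 to 139 in PBMCs. As CPM of the whole library the sums of this list were 48.5 to 70.7 in platelets and 111 to 245 in PBMCs. Of 13 dendritic cell markers 6 were lower and 4 higher (median -0.28), with summed levels of 146 to 206 in platelets and 226 to 269 in PBMCs.

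Xcr1 and Clec9a, which mark cross-presenting dendritic cells, were higher in platelets. Xcr1 measured 21.6, 12.6, 10.5, 10.3 and 10.3 normalized CPM in platelets and 0.771, 1.04, 0.220, 1.21 and 1.03 in PBMCs (3.92 ± 0.36). Its lowest PBMC library was replicate 3 and its highest replicate 4, as for most platelet adhesion receptors, and the source of its reads was not tested. Clec9a was higher by 2.17 ± 0.32, and 184 of its exon bases are shared with the neighboring platelet gene Clec1b.

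Erythroid markers were higher in platelets with TMM scaling. All 21 tested (22 listed) were higher by more than 2-fold with a median of 3.56, and 11 of them (against 25.0% of all genes) lay above all PBMC libraries. The beta globin gene Hbb-bs, higher by 2.19 ± 0.54, was at 0.70 with library totals and no longer passed (adjusted P = 0.133), 1 of 3 markers that did not pass on that scale, where 18 were higher. The summed level of the markers ranged from 96502 to 578550 normalized CPM in platelets and from 20240 to 63869 in PBMCs, and they took 6.02 to 30.6% of platelet counts and 3.57 to 10.3% of PBMC counts. Alas2, which starts heme synthesis in red cell precursors, measured 23531, 2673, 5762, 14485 and 15898 normalized CPM in platelets and 515, 970, 2190, 676 and 783 in PBMCs (3.60 ± 0.61, adjusted P = 0.000141). Platelet replicate 2 was the lowest for 18 of the 21 markers and platelet replicate 1 the highest for 17, and PBMC replicate 3 was the highest of its tissue for 20. Slc4a1, the anion exchanger of red cells, was higher by 3.19 ± 0.68, with overlapping libraries. The part of red cells and reticulocytes in other platelet values was not tested, and with the hemoglobin genes left out 4629 genes were higher in platelets and 5852 lower.

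The largest fold changes in favor of platelets were in genes with almost no PBMC counts. Among the 15 protein coding genes with the largest log2 fold change in favor of platelets, each with non-overlapping libraries and at least 10 normalized CPM, were Igfbp5 (8.79 ± 0.41), S100a16 (8.80 ± 0.40), Sox18 (8.34 ± 0.48), Sparc, Bgn (8.11 ± 0.40) and Egfl7 (8.01 ± 0.28). Without PBMC replicate 4 Sox18 was at 9.09, and without PBMC replicate 5 Sparc was at 8.95. The others of the 15 were Fmo1, Fmo2, C130074G19Rik, Ptprb, Adgrf5, Sparcl1, Col3a1, Lims2 and Pgm5. The gene with the largest value, Pgm5, had 702 platelet counts and 2 PBMC counts, a ratio of 758 per count of library size with an exact 95% interval of 209 to 6270 that covers counting error only.

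Several of these genes are known from endothelial cells and fibroblasts, which led to lists of endothelial, fibroblast and adipocyte markers that were written after the values had been seen, so their counts are a description. Of 18 endothelial markers all 18 were higher in platelets, 17 by more than 2-fold (median 6.88), and all 18 lay above all PBMC libraries, against 25.0% of all genes. Their summed level ranged from 523 to 860 normalized CPM in platelets and from 21.9 to 47.1 in PBMCs. Cldn5, a tight junction protein, measured 4.24, 8.21, 9.06, 13.4 and 12.9 normalized CPM in platelets, was at 0 in 4 PBMC libraries and at 0.0792 in the fifth. Kdr, a VEGF receptor, was higher by 4.32 ± 0.29 and Emcn, a sialomucin of vessels, by 7.27 ± 0.43. Platelet replicate 1, the highest library for adhesion receptors, was the lowest for 14 of the 18.

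Of 14 fibroblast and mural markers (18 listed) 11 were higher, all by more than 2-fold, and 1 was lower, with a median of 7.56, or 7.08 with 3 genes that had no PBMC count set at their lower bound. Col1a1, a collagen of fibroblasts, measured 37.2, 62.1, 33.8, 85.2 and 92.8 normalized CPM in platelets and 0.132 to 0.479 in PBMCs (7.38 ± 0.40). The summed level of the list was 206 to 421 normalized CPM in platelets and 106 to 175 in PBMCs. As CPM of the whole library it was 103 to 266 in platelets (median 165) and 172 to 309 in PBMCs (median 240), so its direction depends on the scaling. Of 3 adipocyte markers tested (11 listed) 2 were higher. Of 17 liver, muscle and skin markers 5 passed the filter and 4 were higher, 3 of which were the collagen genes that the fibroblast list also holds. The part of these cells in the platelet values of genes they share, such as Sparc and Timp3, was not tested.

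The largest differences in favor of PBMCs were in genes of acute activation. Of the 15 genes with the most negative log2 fold change that met the same rule, Cxcl2, a neutrophil chemokine, was at -4.81 ± 0.75, Nfkbiz, an NF-kappa B cofactor, at -4.54 ± 0.42, and Tnfaip3, the NF-kappa B brake A20, at -4.36 ± 0.43. The immediate early factors Fosb, Atf3 and Fos were at -4.41 ± 0.43, -3.95 ± 0.41 and -3.91 ± 0.54, and the phosphatase Dusp1 at -4.01 ± 0.40. Tnfaip3 measured 26.4, 23.7, 31.5, 25.2 and 31.4 normalized CPM in platelets and 123, 687, 902, 721 and 400 in PBMCs. Fos measured 73.0, 16.9, 44.7, 10.4 and 9.52 in platelets and 428, 341, 391, 625 and 537 in PBMCs. Neither gene overlapped between the tissues, and PBMC replicate 1 held the lowest Tnfaip3 of its tissue.

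Pairs of related genes were compared within each library by the log2 ratio of their normalized CPM, each with a pseudocount of 1. The pairs were formed from a gene known in platelets and a relative, with earlier results of these data known, so the values are a description without a test. The ratio did not overlap between the tissues in 18 of 20 pairs, also with a pseudocount of 0.1. The ratio of Ptgs1 to Ptgs2 was 7.16 ± 0.84 (SD, n = 5) in platelets and 0.87 ± 1.43 in PBMCs, and this difference of 6.30 was 6.99 with the smaller pseudocount, since Ptgs2 was low. Rab27b to Rab27a was 3.28 ± 0.60 and -1.25 ± 0.87, Itga2b to the leukocyte integrin Itgal 4.37 ± 0.26 and -0.20 ± 1.11, and Bcl2l1 to Bcl2 2.83 ± 0.72 and -1.04 ± 0.23. Among cytoskeletal pairs, Tmsb4x to Tmsb10 was 6.29 ± 0.56 and 3.28 ± 0.50, and Tubb1 to Tubb5 3.20 ± 1.02 and 0.32 ± 0.97. Rap1b to Rap1a differed least among those 18, with 2.37 ± 0.16 and 1.90 ± 0.07. The ratio of Actn1 to Actn4, 2 alpha actinins, was -0.45 ± 0.09 and -0.28 ± 0.12, and that of Fth1 to Ftl1 1.37 ± 0.29 and 1.03 ± 0.23, and both of these pairs overlapped. Values here are ratios of reads per gene and are not corrected for length, and Myl12b, the relative of Myl9 in another pair, has 2 overlapping annotated genes of that name.

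A further 10 genes were followed because the study names them for platelets or for the comparison of the tissues. Among them, B2m, Tmsb4x, Fth1, Pf4, Ppbp and Rgs18 were higher by 3.79 to 4.86 on the log2 scale, Eef2 by 0.69 with the reservation on scaling above, and Calr was lower. Ctsb measured 727, 126.4, 213, 487 and 523 normalized CPM in platelets and 311 to 389 in PBMCs (0.23 ± 0.36, adjusted P = 0.582), and with library totals it was at -1.31 and passed (adjusted P = 0.000758). Igfbp4 measured 83.2 to 120 and 78.0 to 158 (-0.25 ± 0.18, adjusted P = 0.219), and passed without PBMC replicate 3, at -0.39 (adjusted P = 0.0322), and with library totals, at -1.69 (adjusted P = 3.91e-06). Both overlapped between the tissues.

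The same tissue difference was measured in libraries that the control comparison did not use. In mice that had received 2000 B16F10 melanoma cells (early tumor), 2246 of the genes higher by more than 2-fold in controls were tested, 2245 had the same direction and 2240 (99.7%) were also called at an adjusted P under 0.05. Of the genes lower by more than 2-fold in controls 2534 were tested there, 2528 had the same direction and 2362 (93.2%) were called. In mice that had received 100000 cells (large tumor), 2036 of 2053 genes higher in controls kept that direction and 1795 (87.4%) were called, and 2276 of 2278 genes lower in controls kept theirs and 2155 (94.6%) were called. These are separate mice, with 5 platelet and 5 PBMC pools in each group, prepared in the same way. For scale, 31.3% of all genes were called higher and 39.8% lower in controls, and the shares of all genes called in the tumor groups are not given here.

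**Figure D5:**
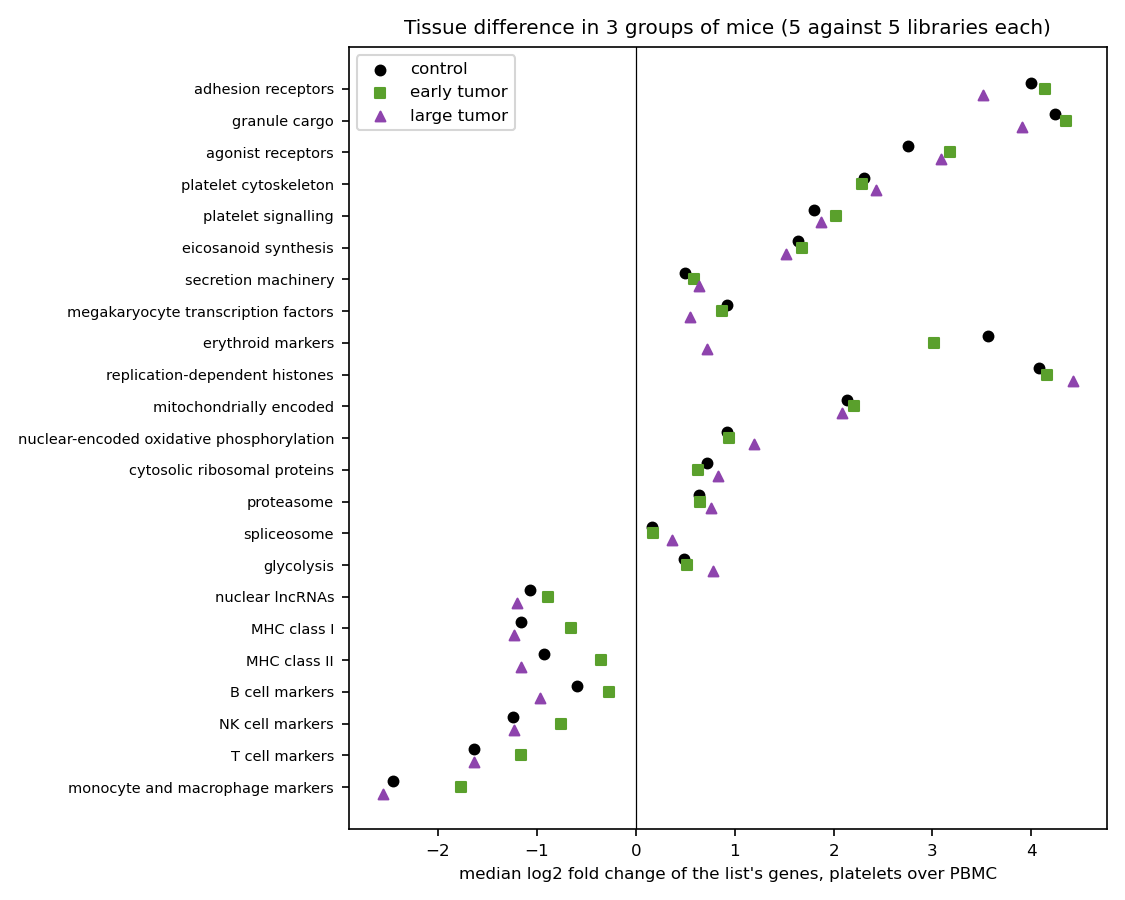
Median log2 fold change (platelets over PBMCs) of each list in control (circles), early tumor (squares) and large tumor mice (triangles), from separate fits of 5 against 5 libraries. Adhesion receptors stood at 4.00, 4.14 and 3.52, while erythroid markers stood at 3.56, 3.01 and 0.72.

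List medians in the early and large tumor groups were 4.14 and 3.52 for adhesion receptors, 4.35 and 3.91 for granule cargo, 2.29 and 2.43 for the cytoskeleton and 4.16 and 4.42 for histones. B cell markers stood at -0.27 and -0.96, with 3 lower and 2 higher in early tumor against 13 lower and 2 higher in controls, dendritic cell markers at 0.02 and -0.20, and apoptosis regulators at -0.04 and -0.08. For MHC class I they were -0.65 and -1.23, for T cell markers -1.16 and -1.64, and for monocyte and macrophage markers -1.77 and -2.55. A test of the interaction over all 30 libraries and 16498 genes asked whether any tissue difference itself changed. By edgeR's quasi-likelihood test no gene passed for early tumor against controls (887 at an unadjusted P under 0.05, smallest adjusted P = 0.0771) or for large tumor against controls (1088, smallest adjusted P = 0.267).

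One early tumor PBMC library stood apart, replicate 3, with 32900 genes with a count against 20540 to 22991 in the other PBMC libraries. Without it B cell markers stood at -0.32 in early tumor mice, with 5 lower and 1 higher, dendritic cell markers at -0.03 and apoptosis regulators at 0.05, both lists thus changing sign near 0. Of the genes lower by more than 2-fold in controls 2545 were then tested and 2311 (90.8%) called, and of those higher 2276 and 2267 (99.6%). The interaction again gave no gene by edgeR's quasi-likelihood test for early tumor (769 at an unadjusted P under 0.05, smallest adjusted P = 0.255) or for large tumor (1071, smallest adjusted P = 0.371).

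Erythroid markers had a smaller median in large tumor mice. In early tumor mice 21 of 21 were higher in platelets, and in large tumor mice 0 of 21 were called in either direction. In the interaction for large tumor all 21 had a smaller difference than in controls, with a median change of -2.64 on the log2 scale, 17 of them at an unadjusted P under 0.05 and none after adjustment (smallest adjusted P = 0.537). The share of counts on erythroid markers in PBMCs was 3.57 to 10.3% in controls, 3.57 to 9.53% in early tumor and 7.13 to 30.2% in large tumor mice, and in platelets 6.02 to 30.6%, 13.4 to 24.3% and 4.76 to 44.2%.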

How the data were processed

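Platelet and PBMC RNA of control mice was sequenced in 5 pooled libraries each. Per the labels, the authors aligned reads with HISAT2 2.0.5 and made the deposited counts, whole reads per gene, with featureCounts 1.5.0-p3 (DESeq2 1.16.1 is also named). The labels name the build mm9, but gene identifiers and positions match GRCm38, and positions are from GENCODE M21. Samples were grouped by title and source name (the cell type label reads PBMC for platelet samples too); 0 sample columns were left unused.

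Counts of both tissues were filtered and fitted together with edgeR 4.0.16 (R 4.3.3; filterByExpr, TMM factors, quasi-likelihood F test, two-sided, Benjamini-Hochberg adjustment over 14670 genes; glmTreat for differences over 2-fold). Alternatives used other scalings and filters, DESeq2 1.42.0, limma 3.58.1 (voom with quality weights), a replicate block, all 30 libraries and leaving out each library. In simulated counts for this comparison of 14670 genes, 60 of 100 genes changed 2-fold and 99 of 100 changed 4-fold were recovered, with all other genes left unchanged.

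The genes and lists were chosen with earlier results of these data known, and 3 lists were added after values were seen. Genes were named as the 15 largest differences in each direction, the 10 most abundant of each tissue, leading and contrary list members, paralog pairs and 10 genes the study names. Further list members were named after their values were seen. Results for some genes are not reported here. Depth was 15286572 to 25360080 counts in platelets and 14089426 to 15440504 in PBMCs, and intervals cover counting error only.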

Additional observations from a re-analysis of the deposited data

Results flagged for a closer look

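The level of a library was set against the other 4 of its tissue in 332 groups of 5 libraries, and 20 values stood apart by Dixon's criterion of 0.71, where chance alone marks about 1 group in 20. Values are normalized CPM, with the range of the other 4 libraries in parentheses. Their causes were not tested.

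Platelet replicate 1 was high for the transcription factor Nfe2, 1050 (326 to 458), the survival gene Bcl2l1, 864 (277 to 392), the chaperone Calr, 176 (90.3 to 106), the chemokine receptor Xcr1, 21.6 (10.3 to 12.6), the ADP receptor P2ry1, 97.8 (40.4 to 49.2), and the T cell co-receptor Cd4, 31.1 (16.7 to 18.8). It was low for the B cell factor Spib, 188 (280 to 304). Platelet replicate 3 was high for the myeloid factor Cebpb, 85.4 (12.2 to 28.6), and the neutrophil granule gene Ngp, 7.36 (1.98 to 3.30).

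PBMC replicate 3 was low for Gata1, 4.83 (14.6 to 18.1), and high for H2-Ab1 of MHC class II, 776 (596 to 609), and for the erythroid genes Alas2, 2190 (515 to 970), and Slc4a1, 164 (31.4 to 69.1). PBMC replicate 4 was high for the neutrophil genes S100a8, 403 (35.3 to 108), S100a9, 437 (43.5 to 137), and Ngp, 166 (18.6 to 26.6), for the peptide transporter Tap1, 274 (244 to 250), and for the matrix gene Bgn, 0.282 (0.0735 to 0.120). PBMC replicate 5 was high for the endothelial gene Cldn5, 0.0792 (0 to 0), and for Timp3, 0.594 (0.220 to 0.279), both resting on few counts.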

How the results depend on the processing

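Scaling by library totals alone was the alternative that moved most results. It gave 1670 genes higher and 11416 lower in platelets (1138 and 8567 by more than 2-fold), and 13 of 38 lists with a median above 0 in place of 27. It turned the medians of DNA replication (-1.14), RNA polymerase II (-1.28), apoptosis regulators (-1.38), cytosolic ribosomal proteins (-0.69), glycolysis (-0.95), iron and heme (-1.08), megakaryocyte transcription factors (-0.52), mitochondrial ribosomal proteins (-0.84), the mitotic cell cycle (-0.63), oxidative phosphorylation (-0.52), the proteasome (-0.78), secretion machinery (-0.97), the spliceosome (-1.26) and translation factors (-0.99). Single genes turned as well: Ccl5 (-1.37), Eef2 (-0.75), Eef1a1 (-0.64), H2-D1 (-0.83), Psmb8 (-0.63), Spib (-0.45), Lyz2 (-1.28), S100a8 (-1.03), S100a9 (-0.81), Ctsb (-1.31), Cd36 (-0.13), F2r (-1.26), Vamp8 (-0.67), Fli1 (-0.59), Gas5 (-0.75), Ldha (-0.58), Actb (-0.26) and Vpreb3 (-0.74). All of these shifts are close to the shift of -1.45 in the median of all genes.

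With every gene that had a count, 3468 genes were higher and 4111 lower by more than 2-fold, the apoptosis median was -0.068 and Ccl5 was at -0.086. With voom these were at -0.14 and -0.29. Igfbp4, not called, passed with library totals (-1.69). Among called genes, Pabpc1, Meis1, Hbb-bs, Actb, Cd36 and Spib no longer passed with library totals, the last 3 having also turned, H2-D1 with every gene that had a count or the block, and Calr and Tfrc in the fit of all 30 libraries, with or without early tumor PBMC replicate 3 (left out after seeing the data). All 154 genes followed kept their direction and side of the threshold with DESeq2's size factors in edgeR. Without hemoglobin genes, the difference in the share of ribosomal protein genes was -1.55 (adjusted P = 0.103) and that of long noncoding RNAs -0.207 percentage points (adjusted P = 0.0524), both by an exact permutation test. The cause of these changes was not tested.

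Leaving out each library in turn gave 4439 to 5407 genes higher and 5174 to 5750 lower, and 2327 to 2620 and 2131 to 2733 by more than 2-fold. Ccl5 ranged from -0.082 (without PBMC replicate 1) to 0.29 (without platelet replicate 4), and was at -0.017 without platelet replicate 3 and -0.012 without PBMC replicate 3. The early tumor interaction gave 0 to 1 genes, the 1 without platelet replicate 3. Whether replicate numbers pair the tissues was left undecided. Correlations of same-numbered libraries ranged from -0.322 to 0.302, and so few values can neither show nor exclude shared mice. With the numbers as a replicate block the counts were 4264 higher and 5638 lower (2182 and 2556 by more than 2-fold), and Ctsb was at -0.015. Pools of mice and 5 libraries per tissue limit precision, and in simulated counts a 2-fold change was recovered in 60 of 100 genes. The simulation changed only 100 genes 2-fold and 100 genes 4-fold, equally up and down, far fewer than were called here. It therefore does not give the recovery in the real comparison and does not bear on the scaling.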
